A study of Mus musculus with 15 samples.

Results

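The cytochrome P450 family 4 (Cyp4) enzymes described here are 10 genes of the mouse liver: Cyp4a10, Cyp4a12a, Cyp4a12b, Cyp4a14, Cyp4a31, Cyp4a32, Cyp4f13, Cyp4f14, Cyp4f15 and Cyp4v3. They were chosen by gene symbol, through the Ensembl identifier, from 56953 genes listed for each library, and all 10 passed the filter on low counts. Messenger RNA of primary mouse hepatocytes was sequenced in 15 libraries. ΔEGFR transgenic mice gave 4 libraries after carbon tetrachloride (CCl4), a toxin that hepatocytes convert into a reactive radical, and 4 after mineral oil, its carrier. Wild-type (WT) mice gave 3 libraries after CCl4 and 4 after mineral oil. The labels give neither the promoter of the transgene nor the part of the receptor it encodes, and they name no dose, duration, sex, age, animal or batch. The p-values therefore measure the spread between these libraries, which may be technical in part.

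Cyp4 enzymes oxidise the last carbon of a fatty acid chain, the omega position, and so begin a route that ends in dicarboxylic acids, which peroxisomes then shorten. Fatty acids are the usual substrates of the Cyp4a enzymes, and their genes include classic targets of the fatty acid receptor PPARα. Cyp4f enzymes act on leukotrienes, which are inflammatory lipids, and on the side chains of vitamins E and K, while Cyp4v3 is the mouse counterpart of human CYP4V2, the gene of a crystalline retinal dystrophy.

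Total expected counts were between 51.7 M and 155.4 M (M, mega) per library, in 2 ranges of unknown origin (6 libraries with 51.7 to 61.9 M and 9 with 96.2 to 155.4 M). The ranges went largely with genotype: the lower one held 1 of 4 ΔEGFR CCl4, 0 of 4 ΔEGFR mineral oil, 2 of 3 WT CCl4 and 3 of 4 WT mineral oil libraries. The summed level of 20 hepatocyte markers overlapped between the groups, at 95724 to 161698 TPM (length-corrected transcript levels that add to a fixed total) in ΔEGFR CCl4, 82845 to 165235 in ΔEGFR mineral oil, 103150.1 to 178779 in WT CCl4 and 94115 to 168106 in WT mineral oil libraries. The summed level of 20 macrophage markers was 3630.5 to 10543 TPM in ΔEGFR CCl4, 121 to 1529.8 in ΔEGFR mineral oil, 3410.1 to 12322 in WT CCl4 and 154 to 2126 in WT mineral oil libraries, and no marker of the list was at 0 in all libraries. The mean log2 CPM of 77 markers of non-hepatocyte cells was 3.33 to 4.10 in ΔEGFR CCl4, −0.14 to 3.05 in ΔEGFR mineral oil, 3.59 to 3.87 in WT CCl4 and −0.18 to 4.19 in WT mineral oil libraries, where replicate 1 held the highest value of all. This score was mostly higher with CCl4, but the medians of its cell types were not all alike. In WT the median log2 fold change was 2.20 for macrophage and 1.86 for stellate markers. It was 0.10 for endothelial and cholangiocyte markers, −1.45 for lymphocyte and −1.35 for neutrophil markers. The neutrophil markers summed to 5.83 to 5374 TPM in WT mineral oil and 307 to 1309 TPM in WT CCl4 libraries. Lymphocyte markers summed to 7.61 to 238 TPM and 15.7 to 99.8 TPM. For both, the mineral oil range enclosed the CCl4 range, and the part of single libraries in these medians was not tested. No lymphocyte or neutrophil marker fell in WT by edgeR, and 2 neutrophil markers rose. In ΔEGFR all these medians were positive, from 0.53 (neutrophil) to 2.43 (macrophage). The part of the score in the results was not tested beyond a fit that held it as a covariate. Of the 20 hepatocyte markers 3 fell with CCl4 in ΔEGFR and 6 in WT, with median log2 fold changes of −0.76 and −0.81, and none rose. Over all genes tested 2.38% fell in ΔEGFR and 7.2% in WT. Averaged over the genotypes 14 of the 20 fell (15.1% of all genes did), with a median of −0.90. Xist, the transcript of the inactive X chromosome, reached at most 0.01 TPM in any library, and Ddx3y, a Y-linked gene, was at 7.89 to 21.6 TPM. Mouse Egfr was not called by genotype (log2 difference, ΔEGFR minus WT, −0.10 ± 0.38 in mineral oil and −0.42 ± 0.41 in CCl4, adjusted p = 0.956 and 1 by edgeR), which does not check the labels, since the sequence of the transgene is not given.

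RefSeq's table of starts held 5 of the 10 genes (Cyp4a32, Cyp4f13, Cyp4f14, Cyp4f15 and Cyp4v3). The windows shown are the 250 bases before the annotated start, in GRCm38.p6 and 5′ to 3′ on the gene's strand, of the 3 Cyp4f and Cyp4v genes that fell with CCl4 in both genotypes and of Cyp4a32, the only Cyp4a gene in the table. Capitals mark matches to the CCAAT box, the TATA box (TATAAA) or the STAT5 element (TTCNNNGAA), on either strand, and no match overlaps another.
Cyp4a32 (chr4:115600688-115600937, plus strand): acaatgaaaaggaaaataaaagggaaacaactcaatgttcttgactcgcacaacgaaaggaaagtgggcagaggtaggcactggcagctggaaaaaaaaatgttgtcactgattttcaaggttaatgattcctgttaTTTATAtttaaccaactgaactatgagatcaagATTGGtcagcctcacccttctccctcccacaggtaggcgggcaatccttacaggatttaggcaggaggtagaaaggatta
Cyp4f13 (chr17:32947362-32947611, minus strand): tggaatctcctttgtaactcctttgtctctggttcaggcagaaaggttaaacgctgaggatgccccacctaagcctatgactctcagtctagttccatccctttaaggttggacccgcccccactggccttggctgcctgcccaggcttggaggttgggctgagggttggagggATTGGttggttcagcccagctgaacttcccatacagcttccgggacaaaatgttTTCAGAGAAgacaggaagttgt
Cyp4f15 (chr17:32685409-32685658, plus strand): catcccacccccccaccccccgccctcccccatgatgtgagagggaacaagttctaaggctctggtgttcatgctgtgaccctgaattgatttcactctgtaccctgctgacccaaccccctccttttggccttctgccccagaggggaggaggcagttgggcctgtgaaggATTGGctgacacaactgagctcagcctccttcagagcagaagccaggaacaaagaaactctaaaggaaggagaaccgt
Cyp4v3 (chr8:45333164-45333413, minus strand): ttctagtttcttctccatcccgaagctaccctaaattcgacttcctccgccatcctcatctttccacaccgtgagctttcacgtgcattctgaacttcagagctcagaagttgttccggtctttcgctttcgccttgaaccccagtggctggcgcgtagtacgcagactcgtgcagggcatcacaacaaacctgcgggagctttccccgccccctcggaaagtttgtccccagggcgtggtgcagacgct
Cyp4a32, Cyp4f13 and Cyp4f15 each carried the CCAAT box in reverse, as ATTGG, at 80, 76 and 78 bases before the start, and 33.8% of 32851 RefSeq windows of this length held that motif. The STAT5 element was in the Cyp4f13 window alone of the 4 (7.02% of all windows), and the reversed TATA box in the Cyp4a32 window alone (12.4%). No window of the 5 genes held AGGTCA, the half-site of nuclear receptors (14% of all windows), and so none held the repeat of it with 1 base between that PPARα and its partner read (0.0335%). The HNF4A core motif was also in none (0.384%). These are matches of letters and not tested sites.

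Levels of different genes were compared in TPM, which is corrected for length. Cyp4a12a led in mineral oil, at 200.3 ± 85.3 TPM in ΔEGFR (SD, n = 4) and 272 ± 101 TPM in WT (n = 4). Cyp4f14 was the second, at 172 ± 53.7 TPM in ΔEGFR and 178 ± 56 TPM in WT. Cyp4v3 was the third, at 129 ± 34.4 TPM in ΔEGFR and 135 ± 31.6 TPM in WT. Each of these neighbours differed by less than the larger SD of the pair. Lowest in mineral oil was Cyp4a31, at 10.2 ± 12.2 TPM in ΔEGFR and 4.35 ± 2.98 TPM in WT.

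With CCl4 the order changed. Cyp4f14 led, at 134 ± 44.1 TPM in ΔEGFR (n = 4) and 107 ± 22 TPM in WT (n = 3). Cyp4a12a was the eighth gene in ΔEGFR CCl4, at 33.7 ± 15 TPM, and the fourth in WT CCl4, at 44.4 ± 21.9 TPM. Cyp4a12b was the lowest of the 10 in both CCl4 groups, at 7.28 ± 3.36 TPM in ΔEGFR and 6.02 ± 2.72 TPM in WT. Cyp4f14 and Cyp4a10 did not separate in ΔEGFR CCl4, where Cyp4a10 was at 129 ± 127 TPM.

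Much of the family was lower with CCl4. In ΔEGFR 5 of the 10 genes fell and none rose, where 2.38% of the 17975 genes tested fell and 1.77% rose (4.15% in all). In WT 7 of the 10 fell and none rose, where 7.2% of all genes fell and 5.31% rose (12.5% in all). The median log2 fold change of the 10 was −0.96 in ΔEGFR and −1.22 in WT, against −0.02 and −0.03 over all genes. A call was an edgeR quasi-likelihood p under 0.05 after Benjamini-Hochberg adjustment over all genes. Averaged over the genotypes, which uses all 15 libraries, 7 fell and 1 rose (15.1% and 12% of all genes, 27.1% in all), and the median was −1.10. In these bulk libraries a smaller share of hepatocytes and less RNA per hepatocyte cannot be told apart.

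**Figure D1:**
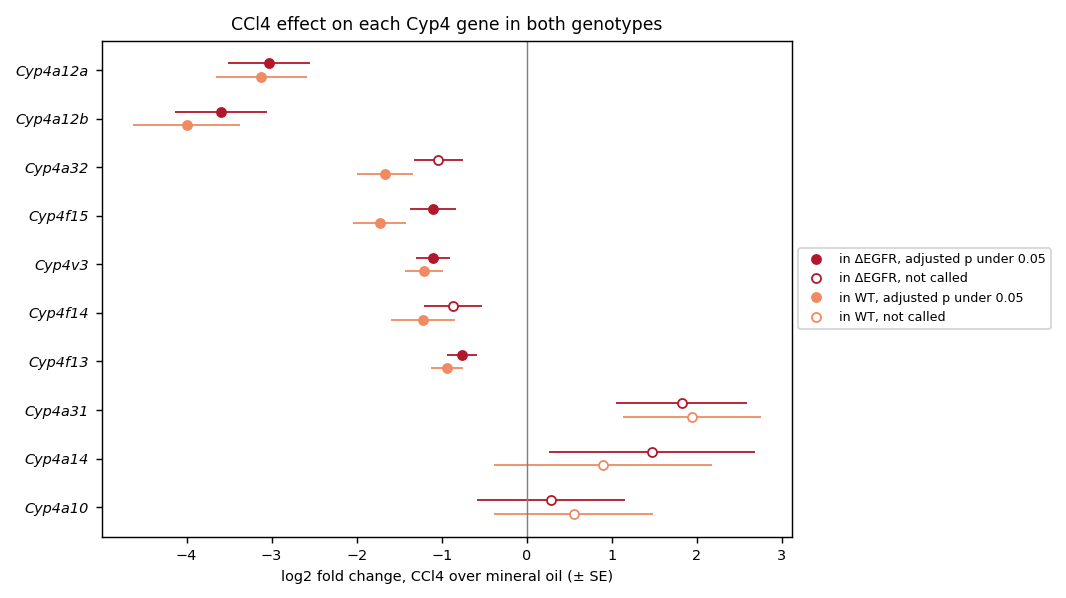
Log2 fold change of CCl4 over mineral oil (x axis, bars are ± SE) for each of the 10 genes, in ΔEGFR (dark red) and WT (orange). Filled points passed the edgeR test, and the Cyp4a12 pair lies farthest to the left, at −3.03 to −4.00, while Cyp4a31 lies at 1.82 and 1.94 with open points.

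Cyp4a12a and Cyp4a12b fell most. Cyp4a12a, the main arachidonic acid omega-hydroxylase of male mice and the source of the vasoconstrictor 20-HETE, depends on androgen and growth hormone. In ΔEGFR it had 25.5, 24.1, 69.5 and 66.3 CPM (counts scaled to library size with TMM factors) after CCl4, against 310.3, 514, 236 and 454 CPM after mineral oil. WT libraries had 85.5, 26.8 and 61 CPM after CCl4, against 309, 411, 639.9 and 655 CPM after mineral oil. Each CCl4 library lay below every mineral oil library. The fall was 8.17-fold in ΔEGFR (log2 −3.03 ± 0.48, adjusted p = 0.0105 by edgeR) and 8.72-fold in WT (−3.12 ± 0.54, adjusted p = 0.0057).

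Cyp4a12b is a near copy of Cyp4a12a and lies close to it in the Cyp4a cluster on chromosome 4. It had 4.85, 5.97, 15.8 and 12.6 CPM in ΔEGFR CCl4 libraries, against 118, 143, 93.5 and 121 CPM in ΔEGFR mineral oil libraries. The WT values were 12.8, 5.24 and 5.77 CPM after CCl4, against 40.4, 115, 116 and 237 CPM after mineral oil. Here too the groups did not overlap. The fall was 12.1-fold in ΔEGFR (log2 −3.60 ± 0.54, adjusted p = 0.00944 by edgeR) and 16-fold in WT (−4.00 ± 0.63, adjusted p = 0.00434). On log2(TPM + 1) with limma the log2 fold change was −3.01 in ΔEGFR and −3.14 in WT, a smaller fall. Cyp4a12a and Cyp4a12b stayed called under all 26 alternatives in each genotype.

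RSEM divides reads that match several genes, so values of near copies are uncertain. In GENCODE M21 transcripts 48.9% of the 50-base windows of Cyp4a12a were also in Cyp4a12b, and 49.4% the other way. The sum of the pair does not depend on that division. It fell 8.86-fold in ΔEGFR (log2 −3.15 ± 0.47, adjusted p = 0.00942 by edgeR) and 9.6-fold in WT (−3.26 ± 0.54, adjusted p = 0.00528). Shared windows made up 29.8% of Cyp4a10, 19.0% of Cyp4a31 and 43.8% of Cyp4a32, against 0.2% of Cyp4a14, 1.1% to 2.4% of the Cyp4f genes and 0.0% of Cyp4v3.

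**Figure D2:**
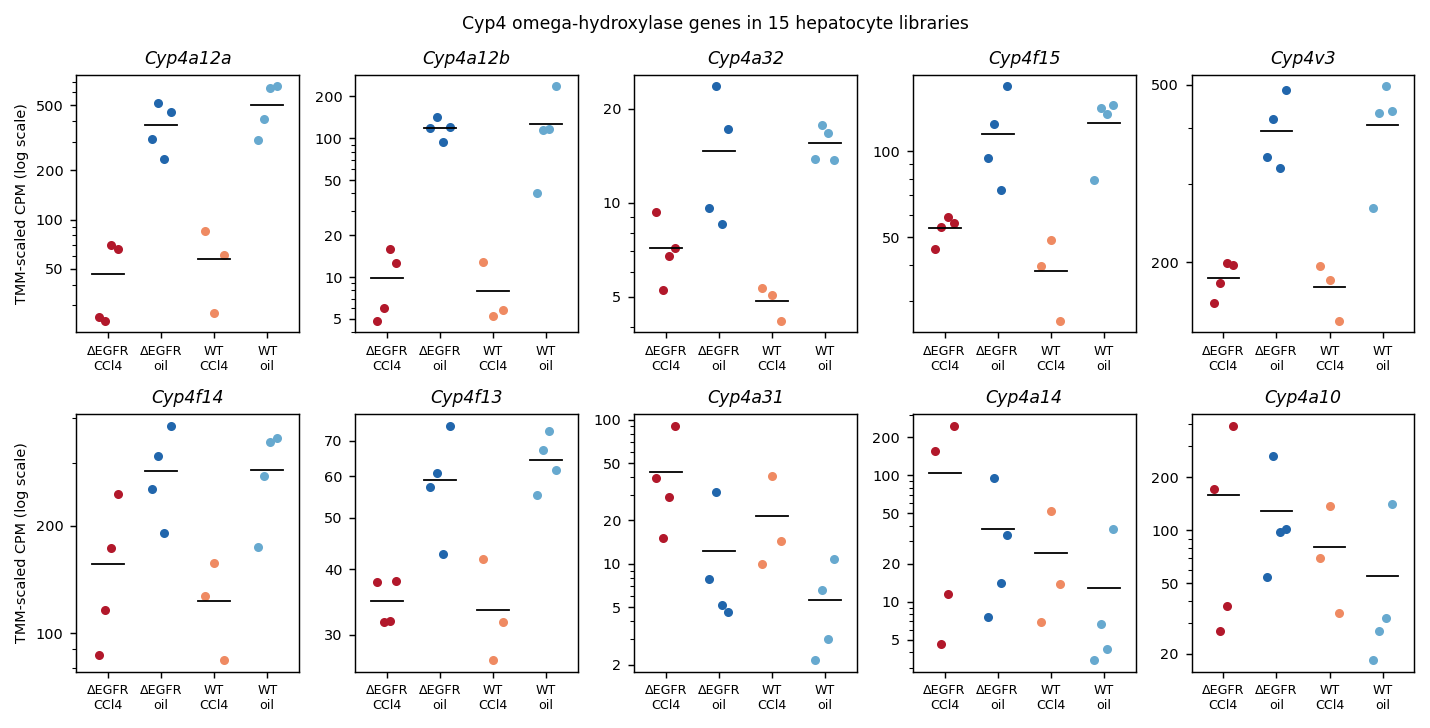
TMM-scaled CPM (y axis, log scale, a scale of its own in each panel) of the 10 genes in every library, with the group mean as a black line, for ΔEGFR CCl4, ΔEGFR mineral oil, WT CCl4 and WT mineral oil. Cyp4a12a lies at 24.1 to 85.5 CPM in the 7 CCl4 libraries and at 236 to 655 CPM in the 8 mineral oil libraries, whereas Cyp4a14 spans 4.68 to 247 CPM within ΔEGFR CCl4 alone.

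Cyp4f13, Cyp4f15 and Cyp4v3 fell in both genotypes, by fewer log2 units than the Cyp4a12 pair. Cyp4f15, an enzyme of the leukotriene B4-hydroxylating Cyp4f group, had 45.6, 54.5, 58.8 and 56.1 CPM in ΔEGFR CCl4 libraries, against 94.7, 125, 73 and 169 CPM in ΔEGFR mineral oil libraries. Its WT values were 39.5, 48.9 and 25.5 CPM after CCl4, against 79.3, 142, 135 and 145 CPM after mineral oil. No CCl4 library reached the lowest mineral oil library of its genotype. The log2 fold change was −1.10 ± 0.27 in ΔEGFR (adjusted p = 0.0413 by edgeR) and −1.73 ± 0.31 in WT (adjusted p = 0.00638). On log2(TPM + 1) with limma the ΔEGFR value was −0.48 and not called (adjusted p = 0.214).

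Cyp4v3, whose human counterpart hydroxylates fatty acids in the retina, had 162, 179.6, 199 and 197 CPM in ΔEGFR CCl4 libraries, against 344, 418, 326 and 487 CPM in ΔEGFR mineral oil libraries. WT libraries had 196, 183 and 148 CPM after CCl4, against 264, 432, 496 and 437 CPM after mineral oil. Its 7 CCl4 values lay within 148 to 199 CPM, a narrow band for both genotypes. The log2 fold change was −1.10 ± 0.20 in ΔEGFR (adjusted p = 0.0174 by edgeR) and −1.21 ± 0.22 in WT (adjusted p = 0.00638). On log2(TPM + 1) with limma it was −0.52 in ΔEGFR and −0.67 in WT, neither called (adjusted p = 0.119 and 0.0653).

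Cyp4f13 had 37.8, 31.8, 31.9 and 37.9 CPM in ΔEGFR CCl4 libraries, against 57.3, 60.7, 42.7 and 74.8 CPM in ΔEGFR mineral oil libraries. The WT values were 41.8, 26.9 and 31.8 CPM after CCl4, against 55.2, 67.3, 73.2 and 61.5 CPM after mineral oil. This was the smallest of the called falls of the 10 genes, with a log2 fold change of −0.76 ± 0.18 in ΔEGFR (adjusted p = 0.0367 by edgeR) and −0.94 ± 0.19 in WT (adjusted p = 0.0109), and the groups did not overlap in either genotype. Leaving out WT CCl4 replicate 2 or 3 ended the WT call (adjusted p of 0.0514 to 0.0559), and on log2(TPM + 1) with limma neither genotype was called (−0.11 in ΔEGFR and −0.43 in WT).

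Cyp4f14, the main vitamin E omega-hydroxylase of the mouse and an enzyme that inactivates leukotriene B4, was called in WT alone, and the difference between the genotypes was itself not called (log2 0.35 ± 0.50, adjusted p = 1 by edgeR). It had 86.9, 116, 173 and 246 CPM in ΔEGFR CCl4 libraries, against 254, 314, 191 and 382 CPM in ΔEGFR mineral oil libraries, which overlap. In WT it had 127, 157 and 84.1 CPM after CCl4, against 174, 275, 344 and 353 CPM after mineral oil. The log2 fold change was −0.87 ± 0.34 in ΔEGFR (adjusted p = 0.139) and −1.22 ± 0.38 in WT (adjusted p = 0.0496). The WT call was lost in 8 other settings and as 10 of the libraries were left out in turn (WT CCl4 replicates 1, 2 and 3, WT mineral oil 2, 3 and 4, ΔEGFR CCl4 2 and 3, ΔEGFR mineral oil 1 and 2), with adjusted p of 0.0586 to 0.2 in these.

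Cyp4a32 is a less studied Cyp4a gene close in sequence to Cyp4a10. Of its 50-base windows 43.8% were also in other Cyp4 genes, so its values depend in part on how RSEM divided reads. Summed with Cyp4a10 and Cyp4a31, it was not called in ΔEGFR (0.41 ± 0.74) or WT (0.49 ± 0.80). In ΔEGFR it had 9.35, 5.26, 6.78 and 7.19 CPM after CCl4, against 9.65, 23.6, 8.54 and 17.2 CPM after mineral oil, so the groups overlapped. In WT it had 5.33, 5.08 and 4.2 CPM after CCl4, against 13.8, 17.8, 16.7 and 13.7 CPM after mineral oil, with a clear gap. Its log2 fold change was −1.04 ± 0.29 in ΔEGFR (adjusted p = 0.0586 by edgeR, not called) and −1.67 ± 0.33 in WT (adjusted p = 0.00875), and the difference between genotypes was not called (0.63 ± 0.42, adjusted p = 1). In ΔEGFR 4 alternatives called it: without ΔEGFR mineral oil replicate 3 (−1.23, adjusted p = 0.0283), without WT mineral oil replicate 1 (−1.04, adjusted p = 0.0402), with depth class as a covariate (−1.08, adjusted p = 0.0458) and by DESeq2 (adjusted p = 0.0128).

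Groups that did not overlap, CCl4 below mineral oil, were found for 5 genes in ΔEGFR and 7 in WT, where 9.33% and 11.9% of all genes showed this. No gene of the 10 had CCl4 wholly above mineral oil (12.3% of all genes in ΔEGFR, 12.1% in WT and 3.64% over both). Over both genotypes 5 genes (Cyp4a12a, Cyp4a12b, Cyp4f13, Cyp4f15 and Cyp4v3) had all 7 CCl4 libraries below all 8 mineral oil libraries, a pattern that 2.82% of all genes showed. The count of 5 calls in ΔEGFR depended on single libraries: it was 2 on leaving out ΔEGFR CCl4 replicate 1 or 2 or ΔEGFR mineral oil replicate 4. It was 3 on leaving out ΔEGFR CCl4 replicate 3, ΔEGFR mineral oil replicate 1 or 2, or the replicate 4 of WT mineral oil. The genes that lost the call there were Cyp4f13, Cyp4f15 and Cyp4v3, with log2 values that stayed between −1.22 and −0.63, and Cyp4f15 lost it without ΔEGFR CCl4 replicate 4 as well. Calls over all genes in ΔEGFR dropped too, from 746 with every library. They were 101, 75 and 129 without ΔEGFR CCl4 replicate 1, 2 or 3. Without ΔEGFR mineral oil replicate 1, 2 or 4 they were 289, 182 and 94, and without WT mineral oil replicate 4 they were 493. With the score of non-hepatocyte markers as a covariate 2 genes (the Cyp4a12 pair) fell in ΔEGFR and 5 in WT, and the log2 fold change of Cyp4a12a was −2.71 in ΔEGFR and −2.76 in WT. Of the 17975 genes tested 40 fell in ΔEGFR and 320 in WT in that fit, against 427 and 1295 without the covariate.

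Cyp4a10, Cyp4a14 and Cyp4a31 did not follow the others. Cyp4a10 and Cyp4a14 are the members that PPARα agonists and fasting induce most. Cyp4a14 had 155, 4.68, 11.6 and 247 CPM in ΔEGFR CCl4 libraries, against 7.62, 95.6, 14.2 and 33.7 CPM in ΔEGFR mineral oil libraries. WT libraries had 6.92, 51.8 and 13.8 CPM after CCl4, against 3.47, 6.66, 4.21 and 37.5 CPM after mineral oil. Within ΔEGFR CCl4 the highest library was 52.9 times the lowest, so the spread within a group exceeded the differences between groups. The log2 fold change of CCl4 was 1.47 ± 1.21 in ΔEGFR (adjusted p = 0.471 by edgeR) and 0.90 ± 1.28 in WT (adjusted p = 0.676).

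Cyp4a10 had 173, 26.9, 37.1 and 394 CPM in ΔEGFR CCl4 libraries, against 54.6, 263, 98.5 and 102 CPM in ΔEGFR mineral oil libraries. Its WT values were 69.9, 137 and 33.9 CPM after CCl4, against 18.4, 26.7, 31.9 and 142 CPM after mineral oil. Within every group Cyp4a10 varied widely, the highest library being 4.04 (WT CCl4) to 14.6 (ΔEGFR CCl4) times the lowest. Its log2 fold change was 0.29 ± 0.87 in ΔEGFR (adjusted p = 0.866 by edgeR) and 0.55 ± 0.93 in WT (adjusted p = 0.732), and 2 SE on either side span both a rise and a fall of more than 2-fold.

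Cyp4a31, another close relative of Cyp4a10, had 39.5, 15.2, 29.3 and 91 CPM in ΔEGFR CCl4 libraries, against 7.85, 31.7, 5.22 and 4.62 CPM in ΔEGFR mineral oil libraries. In WT it had 10, 40.4 and 14.5 CPM after CCl4, against 2.16, 6.55, 3.01 and 10.8 CPM after mineral oil. CCl4 libraries were mostly the higher ones, with 1 mineral oil library inside the CCl4 range in each genotype. The log2 fold change was 1.82 ± 0.77 in ΔEGFR (adjusted p = 0.167 by edgeR) and 1.94 ± 0.81 in WT (adjusted p = 0.134), neither called. On log2(TPM + 1) limma called both (2.32 in ΔEGFR, adjusted p = 0.0318, and 2.14 in WT, adjusted p = 0.0435). That setting called 2129 of 17975 genes higher in ΔEGFR and 2874 in WT, against 319 and 955 by edgeR. Relative to the median of all genes there, Cyp4a31 stood at 2.01 in ΔEGFR and 1.86 in WT. Averaged over the genotypes the edgeR log2 fold change of Cyp4a31 was 1.88 ± 0.56 (adjusted p = 0.025), a 3.69-fold rise. That call was lost without WT CCl4 replicate 2 (1.56, adjusted p = 0.0692) and with the score of non-hepatocyte markers as a covariate (1.77, adjusted p = 0.26). The sum of Cyp4a10, Cyp4a31 and Cyp4a32 was not called in ΔEGFR (0.41 ± 0.74) or WT (0.49 ± 0.80).

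**Figure D3:**
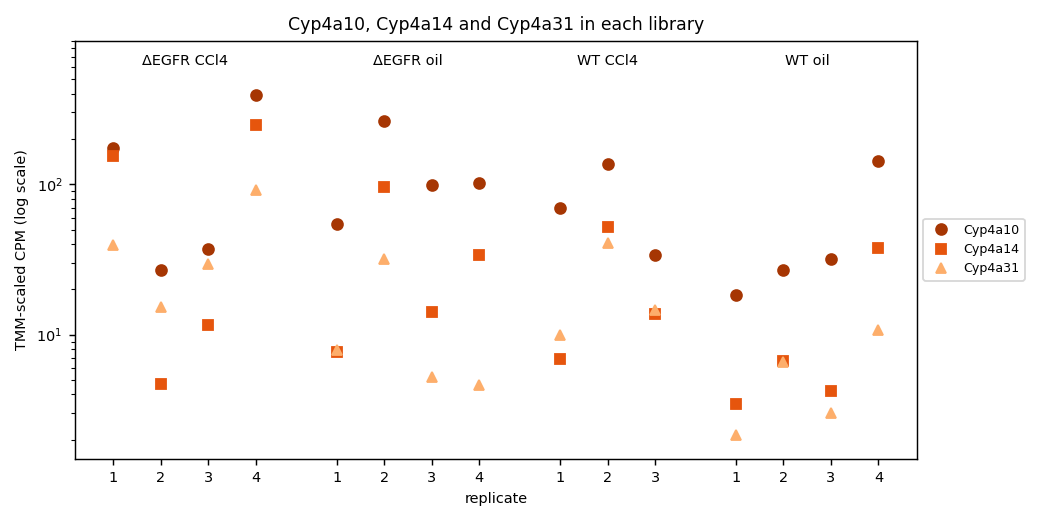
TMM-scaled CPM (y axis, log scale) of Cyp4a10 (circles), Cyp4a14 (squares) and Cyp4a31 (triangles) in each library, by group and replicate. ΔEGFR CCl4 replicates 1 and 4, ΔEGFR mineral oil replicate 2, WT CCl4 replicate 2 and WT mineral oil replicate 4 hold the highest Cyp4a10 and Cyp4a14 values, at 137 to 394 CPM and 37.5 to 247 CPM.

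The libraries that were high in Cyp4a10 were high in Cyp4a14 as well. The same 5 libraries held the ranks 1 to 5 of 15 for both genes, and they came from all 4 groups. Replicate 4 of ΔEGFR CCl4 ranked the first for each of Cyp4a10, Cyp4a14 and Cyp4a31. The root-mean-square difference of Cyp4a10 and Cyp4a14 in log2 CPM, each centred on its mean over the 15 libraries, was 0.85, against 2.83 for Cyp4a12a and Cyp4a14. Cyp4a31 differed from Cyp4a10 by 1.16 and from Cyp4a14 by 1.22. Among the members that fell, Cyp4f13 and Cyp4v3 were most alike, at 0.25, although these genes lie on chromosomes 17 and 8. The 3 genes Cyp4a12b, Cyp4a14 and Cyp4a10 stand in this order within the chromosome 4 cluster. Cyp4a12b and Cyp4a14 had unlike patterns (2.98), whereas the neighbours Cyp4a14 and Cyp4a10 (0.85) and the Cyp4a12 pair (0.56) were more alike. These are descriptions over libraries that share their group.

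The make-up of the family changed with CCl4. Cyp4a12a and Cyp4a12b together made up 7.27 ± 4.1% of the summed TPM of the 10 genes in ΔEGFR CCl4 (SD, n = 4), against 32.5 ± 1.55% in ΔEGFR mineral oil (n = 4). In WT the share was 12.4 ± 6.75% after CCl4 (n = 3), against 39.3 ± 3.45% after mineral oil (n = 4). CCl4 libraries were at 3.92% to 16.5% and mineral oil libraries at 31.1% to 42.9%, with no overlap. The share of Cyp4a10, Cyp4a14 and Cyp4a31 was 34.1 ± 23.5% in ΔEGFR CCl4, 12.5 ± 6.9% in ΔEGFR mineral oil, 24.2 ± 11.5% in WT CCl4 and 4.73 ± 3.72% in WT mineral oil. In ΔEGFR its ranges overlapped (12.4% to 56.8% after CCl4 and 6.58% to 22.1% after mineral oil), whereas in WT they did not (17.5% to 37.5% after CCl4 and 2.55% to 10.3% after mineral oil). Cyp4f14 held 23.4 ± 8.56% in ΔEGFR CCl4, 21.7 ± 2.8% in ΔEGFR mineral oil, 24.6 ± 1.32% in WT CCl4 and 21 ± 1.07% in WT mineral oil. Shares add to a fixed total, so a rise of one gene lowers the share of the rest. The summed TPM itself was 609.8 ± 238 in ΔEGFR CCl4, 816 ± 318 in ΔEGFR mineral oil, 430.0 ± 67.4 in WT CCl4 and 854 ± 298 in WT mineral oil.

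**Figure D4:**
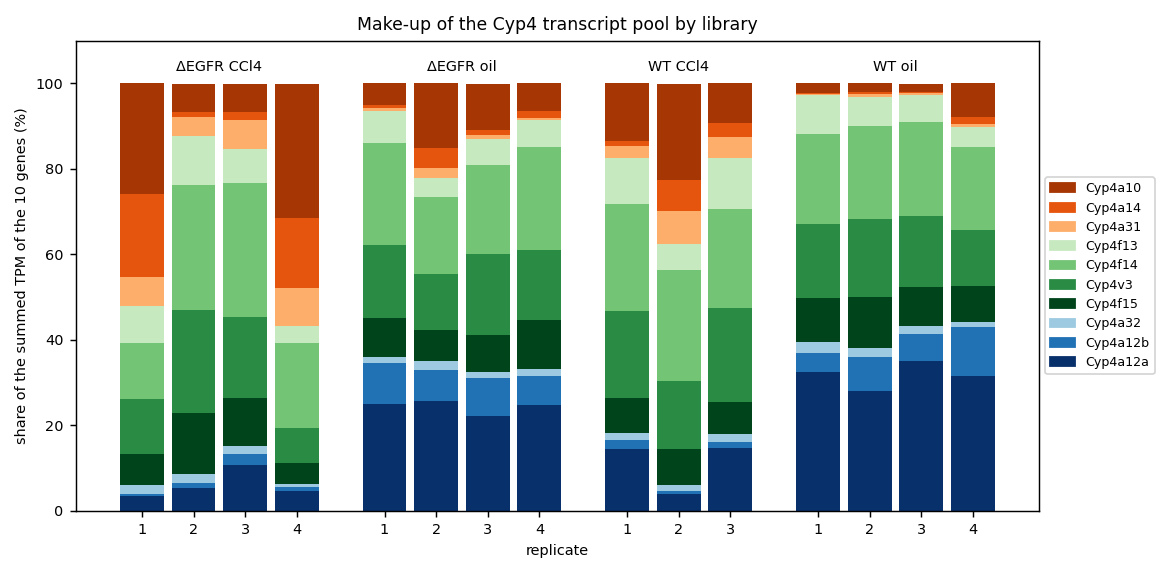
Share of each gene in the summed TPM of the 10 genes (y axis, %) in every library, by group and replicate. The dark and mid blue segments at the base, Cyp4a12a and Cyp4a12b, take 31.1% to 42.9% in the mineral oil libraries and 3.92% to 16.5% in the CCl4 libraries, while the orange segments at the top (Cyp4a10, Cyp4a14, Cyp4a31) take up to 56.8%.

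ΔEGFR and WT libraries differed past the test for no member. Neither ΔEGFR against WT in mineral oil, nor in CCl4, nor the interaction of genotype and CCl4 called any of the 10 genes by edgeR, and 0% of all genes were called in each. At an unadjusted p under 0.05 the members numbered 0 in each of the 3 comparisons, against 1197, 411 and 568 of all genes. DESeq2 called 0 members too, with 0, 2 and 2 of all genes, and limma on log2(TPM + 1) called 1 gene in the interaction, none of them a member. All groups overlapped, where 1.44% of all genes lay wholly higher and 1.3% wholly lower in ΔEGFR mineral oil libraries, and 2.68% and 2.37% in ΔEGFR CCl4 libraries. The widest estimates were those of Cyp4a14, at 1.55 ± 1.22 in mineral oil (adjusted p = 0.739) and 2.11 ± 1.38 in CCl4 (adjusted p = 1), as log2 of ΔEGFR over WT. Estimates with smaller SE were those of Cyp4v3 and Cyp4f13. Cyp4v3 differed by −0.05 ± 0.20 in mineral oil and 0.07 ± 0.21 in CCl4, and Cyp4f13 by −0.13 ± 0.17 in mineral oil and 0.06 ± 0.19 in CCl4. For Cyp4a12a the values were −0.41 ± 0.44 in mineral oil and −0.32 ± 0.47 in CCl4. Depth range and genotype largely went together in these libraries, and with depth class as a covariate several mineral oil values turned sign, to 0.30 for Cyp4v3, 0.04 for Cyp4a12a and 0.95 for Cyp4a12b (−0.10 ± 0.49 without it), none of them called. The CCl4 effect on Cyp4a12a differed between the genotypes by 0.09 ± 0.65 (ΔEGFR minus WT) and that on Cyp4f15 by 0.62 ± 0.40, both with adjusted p = 1. The median of the 10 genes was −0.06 in mineral oil, 0.42 in CCl4 and 0.27 for the interaction, against −0.01, −0.01 and 0.03 over all genes.

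Of 12 other Cyp4 genes in the files, 7 stayed under 0.1 TPM in every library and 5 passed the filter. Cyp4f16 ran against the members of its subfamily: it was at 13.4 ± 2.75 CPM in ΔEGFR CCl4, 7.01 ± 3.68 in ΔEGFR mineral oil, 13.8 ± 2.62 in WT CCl4 and 4.23 ± 2.94 in WT mineral oil. It rose with CCl4 averaged over the genotypes (log2 1.32 ± 0.40, adjusted p = 0.0272 by edgeR), with no overlap, and was called in neither genotype alone (0.94 ± 0.55 in ΔEGFR and 1.70 ± 0.59 in WT). Cyp4b1, Cyp4f17, Cyp4f18 and Cyp4f39 were not called. Cyp4f18, the leukotriene hydroxylase of mouse neutrophils, was at 0.06 to 28.5 TPM in WT mineral oil libraries, the group whose neutrophil markers summed to 5.83 to 5374 TPM.

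The partners of omega-oxidation were read from a list of 29 genes for electron supply, alcohol and aldehyde oxidation and peroxisomal chain shortening. Of these 4 fell and 1 rose in ΔEGFR, and 10 fell and 2 rose in WT, with medians of −0.44 and −0.70. Over all genes 2.38% fell and 1.77% rose in ΔEGFR, and 7.2% fell and 5.31% rose in WT. Decr2, a peroxisomal reductase of unsaturated fatty acids, fell by 1.18 ± 0.21 on the log2 scale in ΔEGFR (adjusted p = 0.0158 by edgeR) and by 1.53 ± 0.23 in WT (adjusted p = 0.00383). Scp2, which encodes a peroxisomal thiolase, fell by 1.23 ± 0.29 in ΔEGFR and 1.31 ± 0.32 in WT. Abcd2, a peroxisomal importer of very long chains, rose by 3.10 ± 0.77 in ΔEGFR (adjusted p = 0.0422) and 2.79 ± 0.79 in WT (adjusted p = 0.0368). Por, the reductase that passes electrons to P450 enzymes, was not called in ΔEGFR (0.10 ± 0.38) or WT (−1.06 ± 0.42).

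Of 32 listed targets of PPARα other than the Cyp4 genes 2 fell and 1 rose in ΔEGFR, 3 fell and 4 rose in WT, and 8 fell and 7 rose averaged over the genotypes, with medians of −0.36, −0.43 and −0.44. The shares of all genes were 2.38% lower and 1.77% higher in ΔEGFR, 7.2% and 5.31% in WT, and 15.1% and 12% averaged. Slc27a1, a fatty acid transporter, rose in both genotypes (2.26 ± 0.33 in ΔEGFR, adjusted p = 0.00874, and 2.62 ± 0.35 in WT, adjusted p = 0.00344 by edgeR). Cyp8b1, a sterol hydroxylase, fell in both (−2.11 ± 0.47 in ΔEGFR, adjusted p = 0.033, and −3.27 ± 0.56 in WT, adjusted p = 0.00553). Plin2, which coats lipid droplets, rose in WT (1.57 ± 0.24, adjusted p = 0.00429) and was at 0.13 ± 0.23 in ΔEGFR. Apoa5, an apolipoprotein that promotes triglyceride clearance, fell in ΔEGFR (−1.30 ± 0.29, adjusted p = 0.0317) and was at −0.81 ± 0.31 in WT. Ppara, the receptor's own gene, had 80 ± 13.7 CPM in ΔEGFR CCl4 and 111 ± 46 in ΔEGFR mineral oil, and 52.2 ± 17.5 in WT CCl4 and 124 ± 54.8 in WT mineral oil. It fell in WT (−1.25 ± 0.38, adjusted p = 0.0479), was not called in ΔEGFR (−0.47 ± 0.34, adjusted p = 0.407), and overlapped between treatments in both. Its interaction was 0.78 ± 0.50 (adjusted p = 1). Among 18 genes for PPAR receptors, their partners and cofactors and other liver transcription factors the median was −0.36 in ΔEGFR, with no call. In WT it was −0.69, where 8 fell and 1 rose. Averaged over the genotypes 12 fell and 2 rose, with a median of −0.53, and none was called in the interaction.

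Male-biased genes that growth hormone controls, the class Cyp4a12a belongs to, mostly fell. Of 20 such genes without the members 15 fell in ΔEGFR and 14 in WT, none rose, and the medians were −2.52 and −2.20, where 2.38% of all genes fell in ΔEGFR and 7.2% in WT. Cyp7b1, an oxysterol hydroxylase, fell by 3.84 ± 0.58 in ΔEGFR (adjusted p = 0.00944 by edgeR) and by 3.96 ± 0.66 in WT (adjusted p = 0.00549). Selenbp2, a selenium-binding protein, fell by 3.23 ± 0.53 in ΔEGFR and 4.32 ± 0.63 in WT. Ghr, the growth hormone receptor, had 169 ± 41.6 CPM in ΔEGFR CCl4, against 454 ± 185 in ΔEGFR mineral oil, and 168 ± 21.7 in WT CCl4, against 512 ± 118 in WT mineral oil. It fell by 1.43 ± 0.28 in ΔEGFR (adjusted p = 0.0229) and 1.61 ± 0.31 in WT (adjusted p = 0.00905). Of the 11 tested female-biased genes without the members none fell and 1 rose, in WT (Cyp3a44, 4.90 ± 1.21, adjusted p = 0.0218), at a low level of 1.39 ± 1.29 CPM in WT CCl4 and 0.0472 ± 0.0609 CPM in WT mineral oil. Averaged over the genotypes 3 of them rose (12% of all genes did) and none fell: Cyp3a44 by 4.09 ± 0.80 (adjusted p = 0.00304), Cyp2a4 by 4.72 ± 1.18 (adjusted p = 0.0108) and Hao2 by 2.90 ± 0.92 (adjusted p = 0.0335), the last 2 with overlap between treatments. Hao2 was near the floor, with its highest group mean at 0.182 ± 0.117 CPM in ΔEGFR CCl4. Cyp2a4 ran from 2.67 to 129 CPM within ΔEGFR CCl4.

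Of 16 tested genes of arachidonate and leukotriene metabolism outside the family 2 fell in ΔEGFR, 3 fell in WT and none rose, where 2.38% and 7.2% of all genes fell. Averaged over the genotypes 4 fell and 1 rose (15.1% and 12% of all genes), and the median was 0.00. Ephx2, the soluble epoxide hydrolase, fell by 1.26 ± 0.25 in ΔEGFR (adjusted p = 0.0229 by edgeR) and 1.59 ± 0.28 in WT (adjusted p = 0.00638). Cyp2j5, an arachidonate epoxygenase, fell by 1.59 ± 0.33 in ΔEGFR and 1.78 ± 0.37 in WT. Among 6 genes of vitamin E and K handling 1 fell in each genotype, 3 fell averaged over the genotypes, and none rose. The gene called in both was Ttpa, the tocopherol transfer protein. It fell by 1.08 ± 0.27 in ΔEGFR (adjusted p = 0.0442 by edgeR) and 1.28 ± 0.30 in WT (adjusted p = 0.0183). In the genotype comparisons and the interaction no gene of these lists was called.

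The genes most like 3 members were found by the smallest root-mean-square difference in centred log2 CPM over the 15 libraries, among 9666 candidates. Cyp4a12a was nearest to Ugt3a1 (0.55), Cyp8b1 (0.58), Egfr (0.60), Ugt2b1 (0.62) and Ces3b (0.63), with a median of 1.69 over the candidates. Cyp8b1, the sterol hydroxylase that sets the bile acid mix, had 36.9, 13.9, 69.4 and 69.9 CPM in ΔEGFR CCl4 libraries, against 141, 249, 154 and 279 CPM in ΔEGFR mineral oil libraries. Cyp4f14 had neighbours at smaller differences, led by Aadac (0.12), Agxt2 (0.16) and F13b (0.16), with a median of 0.71. Its own SD was 0.72, against 1.77 for Cyp4a12a, and such differences tend to grow with the spread of a gene. For Cyp4a14 the nearest gene was Acot1 at 1.3, which is not close against a median of 1.92 and its own SD of 1.96. Acot1, a PPARα target that splits acyl-CoA, had 26.1, 11.4, 25.3 and 30.8 CPM in ΔEGFR CCl4, 3.1, 19.1, 13.7 and 13.9 in ΔEGFR mineral oil, 2.75, 51.8 and 12.1 in WT CCl4 and 5.9, 3.54, 7.3 and 18.3 in WT mineral oil. Its highest library in each group was also the highest for Cyp4a14.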

How the data were processed

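Per the submitters' processing notes, reads were handled with STAR 2.7.8a and RSEM 1.3.0 on GRCm39, and the labels' protocols name a stranded mRNA kit. Which annotation release served, and whether counting used strand, is not given in the sources used here. The authors deposited, for each library, RSEM expected counts and TPM per Ensembl gene. Names came from a table of another build, joined by identifier (52029 of 56953, 91.4%). The 10 members and all gene lists were chosen with earlier results of these data known.

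The test was edgeR 4.0.16 (R 4.3.3) on expected counts taken to whole numbers: filterByExpr by group (minimum count 10, total 15), which left 17975 genes, TMM factors, 4 group means over all 15 libraries, a robust quasi-likelihood fit and Benjamini-Hochberg adjustment. The biological coefficient of variation was 50.9%. SE is the log2 fold change over the square root of F. Sums of near copies were fitted as extra genes, in the same 6 comparisons. Replicates are numbered in deposit order. Named genes were all members, all tested Cyp4 genes, up to 4 called genes per list with the lowest adjusted p, Ppara, Por and Alb, and the 5 most alike genes of Cyp4a14, Cyp4a12a and Cyp4f14 (mean log2 CPM of at least 2), of which a selection is printed. Alternatives were DESeq2 1.42.0, limma 3.58.1 on log2(TPM + 1) and log2(TPM + 0.1), other scalings and filters, a fit of the groups compared, covariates for depth class and non-hepatocyte markers, and leaving out each library. The labels name no molecular identifiers.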

Additional observations from a re-analysis of the deposited data

Results flagged for a closer look

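Dixon's criterion was applied to CPM, not on a log scale, in 36 groups of 4 libraries (10 genes and 2 sums in 3 groups). It marked a library far from the other 3 in 5 of them. The criterion flags about 1 in 20 groups of independent, normally distributed values. These groups share libraries, and the sums hold members, so the count of 5 cannot be set against that rate. WT mineral oil replicate 4 had 142 CPM of Cyp4a10 (others 18.4 to 31.9), 37.5 CPM of Cyp4a14 (others 3.47 to 6.66) and 167 CPM of the sum of Cyp4a10, Cyp4a31 and Cyp4a32 (others 34.4 to 51.6). ΔEGFR mineral oil replicate 2 had 31.7 CPM of Cyp4a31 (others 4.62 to 7.85). WT mineral oil replicate 1, the library with the highest score of non-hepatocyte markers, had 79.3 CPM of Cyp4f15 (others 135 to 145). The log2 fold change of Cyp4f15 in WT stayed called without that library.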

How the results depend on the processing

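Cyp4a12a, Cyp4a12b and their sum kept their direction and call for CCl4 in both genotypes and on average under every alternative run. Averaged over the genotypes, 6 to 8 members were called. In WT the 7 calls became 4 when only the groups compared were fitted, and were 5 to 7 as each library was left out. Over all genes the WT calls were 2250 in the main fit, 533 when only the groups compared were fitted, and 575 to 5111 with a library left out. In ΔEGFR the 5 calls became 3 with no scaling factor, 3 (1 of them higher) with limma on log2(TPM + 1) or log2(TPM + 0.1), 2 with the non-hepatocyte marker covariate, and 2 to 6 as each library was left out. Over all genes the ΔEGFR calls were 746 in the main fit, 1180 with no scaling factor, and 2271 or 2285 with limma. They were 69 with the marker covariate and 75 to 2145 as each library was left out. Without scaling the median of all genes moved to 0.44 in ΔEGFR and 0.40 in WT, and with limma on log2(TPM + 1) to 0.31 and 0.28. Relative to it Cyp4f13 stood at −0.71 and −0.91 without scaling, and at −0.42 and −0.71 in TPM. In TPM the calls of Cyp4f13, Cyp4f14 (WT) and Cyp4v3 were lost in single genotypes and that of Cyp4f15 in ΔEGFR (lowest adjusted p 0.0645), and those of Cyp4f13 and Cyp4f14 averaged over the genotypes, while Cyp4a31 passed in both (0.0318 in ΔEGFR and 0.0435 in WT). For calls lost as libraries were left out, adjusted p lay at 0.0586 to 0.2 for Cyp4f14 in WT (10 libraries), 0.0509 to 0.118 for Cyp4f13 in ΔEGFR (7), 0.0524 to 0.127 for Cyp4f15 in ΔEGFR (8), 0.0547 to 0.0683 for Cyp4v3 in ΔEGFR (3) and 0.0514 to 0.0559 for Cyp4f13 in WT (2). The cause was not tested. No member was called for genotype or interaction under any alternative. Signs turned in 25 of 72 member and sum results, none of them called in either setting. With the depth class as covariate, ΔEGFR against WT in mineral oil became 0.04 (Cyp4a12a), 0.95 (Cyp4a12b), 0.03 (Cyp4a32), 0.50 (Cyp4f14), 0.37 (Cyp4f15) and 0.30 (Cyp4v3), and the interaction −0.21 (Cyp4a12a), −0.22 (Cyp4a12b) and −0.04 (Cyp4v3). With limma on log2(TPM + 1) and log2(TPM + 0.1), Cyp4a12b in mineral oil became 0.09 and 0.09, and the interaction −0.23 and −0.41 (Cyp4a14) and 0.18 and 0.10 (Cyp4a31). In mineral oil the remaining turns were 0.00 (Cyp4a32), 0.07 (Cyp4f14) and 0.03 (Cyp4v3) without a low-count filter, and for Cyp4f14 0.01 with upper-quartile factors and 0.02 with the marker covariate. As each library was left out, values ran as follows. CCl4 effects were −0.65 to 0.94 (Cyp4a10, ΔEGFR), −0.01 to 0.94 (Cyp4a10, averaged), −0.21 to 2.31 (Cyp4a14, WT), and for the sum of Cyp4a10, Cyp4a31 and Cyp4a32 −0.39 to 1.07 in ΔEGFR and −0.05 to 1.20 in WT. ΔEGFR against WT in CCl4 ran 0.00 to 1.60 (Cyp4a10), −0.67 to 0.06 (Cyp4a12a), −0.02 to 0.82 (Cyp4a12b), −0.09 to 0.25 (Cyp4f13), −0.02 to 0.16 (Cyp4v3) and −0.57 to 0.16 (Cyp4a12 sum). In mineral oil it ran −0.39 to 0.38 (Cyp4a12b), −0.38 to 0.12 (Cyp4a32), −0.19 to 0.14 (Cyp4f14), −0.37 to 0.05 (Cyp4f15) and −0.21 to 0.06 (Cyp4v3). The interaction ran −1.35 to 0.33 (Cyp4a10), −0.29 to 0.44 (Cyp4a12a), −0.09 to 0.88 (Cyp4a12b), −0.87 to 1.74 (Cyp4a14), −0.77 to 0.92 (Cyp4a31), 0.00 to 0.28 (Cyp4v3), −0.25 to 0.48 (Cyp4a12 sum) and −0.95 to 0.52 (sum of Cyp4a10, Cyp4a31 and Cyp4a32). No paired analysis was possible because the labels give no replicate numbers. What depth adds to the errors was not tested apart from the fit with depth class.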
